A study of Mus musculus with 2 samples.

Results

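The genes described here are 10 genes of antigen presentation by the major histocompatibility complex (MHC), taken by name from the 31053 genes of the deposited matrix. They are the class I light chain B2m, the class I heavy chains H2-K1 and H2-D1, the class I peptide suppliers Tap1 and Psmb8, the invariant chain Cd74, the class II chains H2-Aa, H2-Ab1 and H2-Eb1, and the class II regulator Ciita. All 10 were found. The study asked how hematopoietic stem and progenitor cells change with age, and this experiment measured sorted LSK cells (lineage-negative, Sca-1-positive, c-Kit-positive bone marrow cells) by CITE-Seq, which counts the transcripts and the tags of surface antibodies in the same cell. LSK_young cells came from C57BL/6JRj mice of 3 to 5 months and LSK_old cells from mice of the same strain of 22 to 28 months. Each age was 1 library of cells pooled from 4 mice, with no other treatment named in the labels. Barcodes end in the suffix 1 or 2 for the library, but which suffix is LSK_young is not given in the sources used here. The ages are therefore not compared, and the suffixes stand side by side as 2 libraries. With 1 library per suffix no test was possible, no p-value is given, and every interval is a 95% interval for counting error only.

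Class I molecules carry peptides made by the proteasome in the cytosol. Psmb8 is a subunit of the immunoproteasome, Tap1 is part of the transporter that moves the peptides into the endoplasmic reticulum, and there they load onto a heavy chain paired with the light chain encoded by B2m. Nearly all nucleated cells display class I. Class II molecules are pairs of an alpha and a beta chain that the invariant chain escorts to endosomes, where they bind peptides of ingested proteins. Dendritic cells, macrophages and B cells are the usual class II cells, and CIITA is the coactivator that switches class II genes on.

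Of the 10 genes, 7 lie in the MHC on mouse chromosome 17, while B2m, Ciita and Cd74 lie on other chromosomes (GENCODE annotation of GRCm38). In the RefSeq promoter table (GRCm38.p6), 7 of the 10 have an entry, which leaves out Cd74, H2-Ab1 and Ciita. Stretches that end at the annotated start are shown for 2 class II chains and 2 class I genes, since the results turn on how these groups part. Capitals mark a motif found by its letters on either strand of the 250 bases before the start, namely the Y box CTGATTGG bound by NF-Y in class II promoters, the kappaB site GGGATTCCC, and, for the interferon-stimulated response element, TTTC followed by any 2 bases and TTTC. They do not overlap one another in these stretches.
H2-Aa, chr17:34287824-34288003, minus strand: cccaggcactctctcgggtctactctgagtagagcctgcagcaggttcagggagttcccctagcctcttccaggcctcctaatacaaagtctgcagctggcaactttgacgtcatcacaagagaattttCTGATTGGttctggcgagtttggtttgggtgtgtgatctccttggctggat
H2-Eb1, chr17:34305687-34305866, plus strand: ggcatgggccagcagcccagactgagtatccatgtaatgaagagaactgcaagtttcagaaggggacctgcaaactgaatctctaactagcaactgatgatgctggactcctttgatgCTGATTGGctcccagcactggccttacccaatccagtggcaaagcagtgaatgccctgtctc
H2-K1, chr17:34000348-34000527, minus strand: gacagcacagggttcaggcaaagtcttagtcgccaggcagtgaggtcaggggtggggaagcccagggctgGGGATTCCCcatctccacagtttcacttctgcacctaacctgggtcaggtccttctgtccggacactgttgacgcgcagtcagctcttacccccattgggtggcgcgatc
B2m, chr2:122147507-122147686, plus strand: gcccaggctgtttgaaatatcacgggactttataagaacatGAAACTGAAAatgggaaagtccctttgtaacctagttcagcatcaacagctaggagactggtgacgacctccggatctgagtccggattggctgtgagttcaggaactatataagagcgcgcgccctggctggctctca

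The Y box stands in H2-Aa and H2-Eb1 in the direction of the gene, and also, on the opposite strand, in H2-D1 and Tap1. It is in 3.83% of the 32851 promoters of the table. The kappaB letters stand in H2-K1 and H2-D1 and in 0.301% of all promoters, and the interferon element stands in B2m, on the opposite strand, and in 2.98% of all promoters. No motif of the 3 was found in these bases of Psmb8. H2-K1 has 2 entries, of which the first is shown.

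A filter of under 10% mitochondrial UMIs and over 1500 genes left 4068 of 4688 barcodes, and 3986 of these had tag values. They held 27073429 UMIs in suffix 1 and 43434366 in suffix 2, with medians of 15240 and 14891 UMIs per cell after the aggregation step of the authors, and no barcode sequence was shared by the suffixes. The 4 gates split CD150 at the 75th and CD48 at the 25th percentile of each suffix. These limits were 40 CD150 and 224 CD48 tags in suffix 1 but 407 and 42 tags in suffix 2, so a gate of the same name was cut at different tag counts. The CD150-high CD48-low gate, the SLAM stem cell gate, had 172 cells in suffix 1 and 383 in suffix 2. There were 204 and 250 CD150-low CD48-low cells, 209 and 241 CD150-high CD48-high cells, and 912 and 1615 CD150-low CD48-high cells, the gate that holds most progenitors. Of the markers, the summed level of 10 stem cell genes (among them Procr, Hlf and Mecom) was 1479 and 1637 UMIs per 1000000 UMIs (CPM) in the SLAM gate of suffix 1 and 2, against 794 and 637 CPM in the CD150-low CD48-high gate. The gates between were nearer, at 1447 and 1433 CPM in CD150-low CD48-low cells and 1134 and 1461 CPM in CD150-high CD48-high cells.

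Class I chains were found in nearly every cell of every gate, and their CPM were higher in the SLAM gate than in CD150-low CD48-high cells in both libraries. B2m stood at 2033 and 2078 CPM in the SLAM gate of suffix 1 and 2, at 1992 and 2163 in CD150-low CD48-low cells, at 1730 and 1924 in CD150-high CD48-high cells and at 1650 and 1917 in CD150-low CD48-high cells. For H2-K1 the levels in the same order of gates were 2548 and 2814, 2349 and 2845, 2090 and 2504, and 2018 and 2221 CPM. For H2-D1 they were 1493 and 1799, 1434 and 1719, 1233 and 1608, and 1170 and 1360 CPM. Both CD48-low gates thus stood above both CD48-high gates for each class I chain within each library. Between the 2 CD48-low gates there was little to choose: the class I sum of the SLAM gate over that of CD150-low CD48-low cells was 1.05 (1.03 to 1.08) in suffix 1 and 0.995 (0.977 to 1.01) in suffix 2.

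Summed over B2m, H2-K1 and H2-D1, class I stood at 6506 CPM in the SLAM gate and 5258 CPM in CD150-low CD48-high cells of both suffixes, a ratio of 1.24 (1.23 to 1.25). Within the libraries it was 1.26 (1.23 to 1.28) in suffix 1 and 1.22 (1.20 to 1.23) in suffix 2. H2-D1 had the highest of these ratios over both suffixes, 1.32 (1.30 to 1.35), followed by H2-K1 with 1.27 (1.25 to 1.29) and B2m with 1.13 (1.12 to 1.15). Reads of H2-K1 and H2-D1 may in part fall on closely related class I genes, and how the counting settled such reads is not given in the sources used here.

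The peptide suppliers went the other way. Tap1 stood at 131 and 111 CPM in the SLAM gate of suffix 1 and 2 and at 154 and 178 CPM in CD150-low CD48-high cells. Psmb8 stood at 491 and 453 CPM in the SLAM gate against 692 and 727 CPM. The ratios over both suffixes were 0.690 (0.643 to 0.740) for Tap1 and 0.650 (0.627 to 0.673) for Psmb8, and both genes were lower in the SLAM gate in each library. With a stricter cell filter, of over 2500 genes and under 5% mitochondrial UMIs, which left 57 SLAM gate cells, Tap1 had 0.928 (0.780 to 1.10), an interval that holds 1, and Psmb8 0.733 (0.671 to 0.799). In CD150-low CD48-low cells Tap1 was at 130 and 137 CPM and Psmb8 at 579 and 575 CPM, and in CD150-high CD48-high cells Tap1 was at 152 and 119 and Psmb8 at 574 and 485 CPM. The class I chains thus took a larger share of the UMIs in the SLAM gate, and both peptide suppliers measured a smaller one. Per cell and without scaling all were lower there. SLAM gate cells had a median of 13334 UMIs against 16343, and Tap1 and Psmb8 were lower in CPM as well. The means were 88.1 against 101 UMIs a cell for the class I sum, 1.58 against 3.24 for Tap1 and 6.29 against 13.7 for Psmb8.

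**Figure D1:**
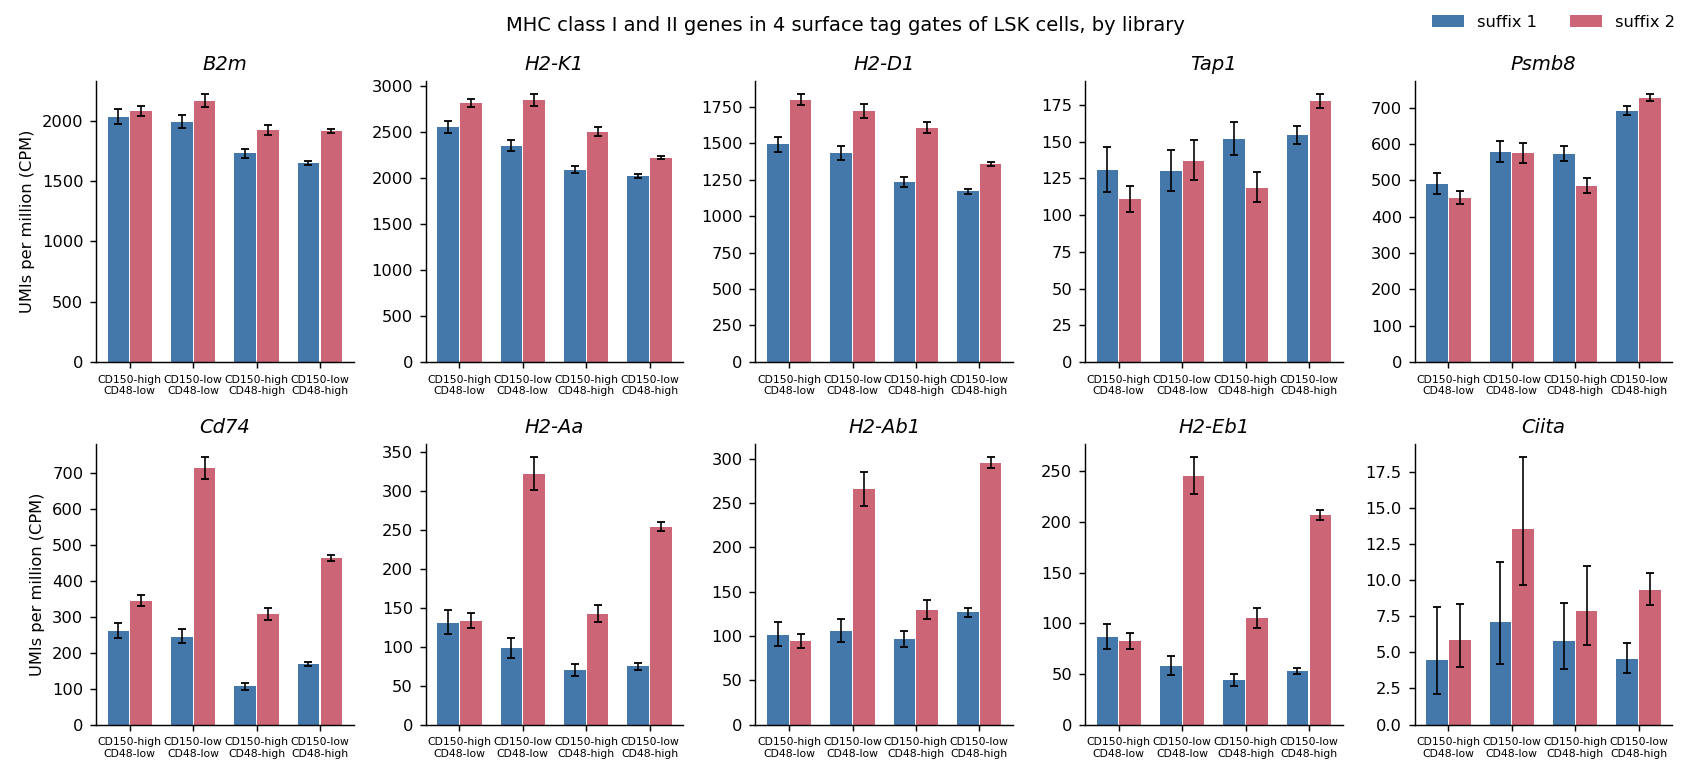
Levels of the 10 genes in CPM (vertical axes, each from 0) in the 4 tag gates (horizontal axes), with suffix 1 in blue and suffix 2 in red and bars for the exact 95% Poisson interval. The class I chains step down from CD48-low to CD48-high gates, Tap1 and Psmb8 are lowest in the SLAM gate of suffix 2 (111 and 453 CPM), and Cd74 is higher in suffix 2 in every gate (464 against 169 CPM in CD150-low CD48-high cells).

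Class II transcripts were also counted in the SLAM gate, and here the libraries parted. Cd74 was at 262 CPM in the SLAM gate of suffix 1 and at 346 CPM in that of suffix 2. It was at 245 and 714 CPM in CD150-low CD48-low cells, at 107 and 308 CPM in CD150-high CD48-high cells, and at 169 and 464 CPM in CD150-low CD48-high cells. In suffix 1 the SLAM gate had the highest level and its lead over the CD150-low CD48-low gate lay within counting error, at 1.07 (0.9504 to 1.19). The latter gate included 1 immunoglobulin-rich cell, described below, with 156 Cd74 UMIs. Without it the gate had 464 Cd74 UMIs in 203 cells, against 589 in 172 SLAM gate cells, so the lead was then larger. In suffix 2 the CD150-low CD48-low gate was the highest, and the SLAM gate stood below both CD150-low gates.

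H2-Aa, the alpha chain of I-A, was at 131 and 133 CPM in the SLAM gate of suffix 1 and 2, at 97.8 and 322 CPM in CD150-low CD48-low cells, at 69.8 and 142 CPM in CD150-high CD48-high cells and at 74.7 and 254 CPM in CD150-low CD48-high cells. H2-Eb1, the beta chain of I-E, was at 86.1 and 82.0, 57.8 and 245, 43.6 and 105, and 52.8 and 207 CPM in the same order. H2-Ab1, the beta chain of I-A, was at 101 and 94.0, 106 and 265, 96.3 and 130, and 127 and 296 CPM. For each of these chains the SLAM gate as first chosen hardly differed between the libraries, while the other gates were higher in suffix 2. The class II sum of the SLAM gate differed more between the libraries with other choices of cells, as given below. Unlike its partner chain H2-Aa, H2-Ab1 was higher in CD150-low CD48-high cells than in the SLAM gate of either library.

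Ciita was sparse, with 4.44 and 5.89 CPM in the SLAM gate, 7.12 and 13.5 CPM in CD150-low CD48-low cells, 5.80 and 7.87 CPM in CD150-high CD48-high cells, and 4.54 and 9.34 CPM in CD150-low CD48-high cells. The 10 Ciita UMIs of the SLAM gate in suffix 1 gave a ratio to CD150-low CD48-high cells of 0.979 (0.452 to 1.90), so neither direction could be read there. In suffix 2 the ratio was 0.630 (0.420 to 0.915). Of the 288 Ciita UMIs of CD150-low CD48-high cells there, 248 were left without the class II-rich and immunoglobulin-rich cells described below. The interval of the ratio then held 1.

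Summed over Cd74, H2-Aa, H2-Ab1 and H2-Eb1, class II stood at 633 CPM in the SLAM gate and 930 CPM in CD150-low CD48-high cells, a ratio of 0.680 (0.660 to 0.700) over both suffixes. This value hides opposite ratios, 1.37 (1.29 to 1.45) in suffix 1 and 0.537 (0.518 to 0.556) in suffix 2. The same turn was seen for Cd74 (1.55 and 0.746), H2-Aa (1.75 and 0.524) and H2-Eb1 (1.63 and 0.397), whereas H2-Ab1 was below 1 in both (0.799 and 0.318). These values include 9 class II-rich and 12 immunoglobulin-rich cells described below, 20 of them in the CD150-low CD48-high gate. Without them the ratios were 2.83 and 0.985 (0.937 to 1.04) for Cd74, 2.49 and 0.608 for H2-Aa, 2.45 and 0.445 for H2-Eb1 and 2.06 and 0.646 for the class II sum. The direction was then lost for Cd74 in suffix 2, for H2-Ab1 in suffix 1 (1.003, 0.870 to 1.15), and for Ciita in suffix 2, as given below. Each library is a single sample, so whether the turn goes with age, with the sort or with the library cannot be told apart. The tag limits of the gates also differ between the libraries. With percentiles taken over both suffixes together, which gave 647 SLAM gate cells, the ratio over both suffixes was 0.863 for the class II sum and 1.14 for Cd74, which turned its direction. With a stricter cell filter, which left 57 SLAM gate cells, Cd74 went the other way, to 0.446 (0.401 to 0.496). With no cell filter it was 0.972 (0.932 to 1.01), and Ciita with percentiles over both suffixes was 0.960 (0.718 to 1.27), both with intervals that hold 1.

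**Figure D2:**
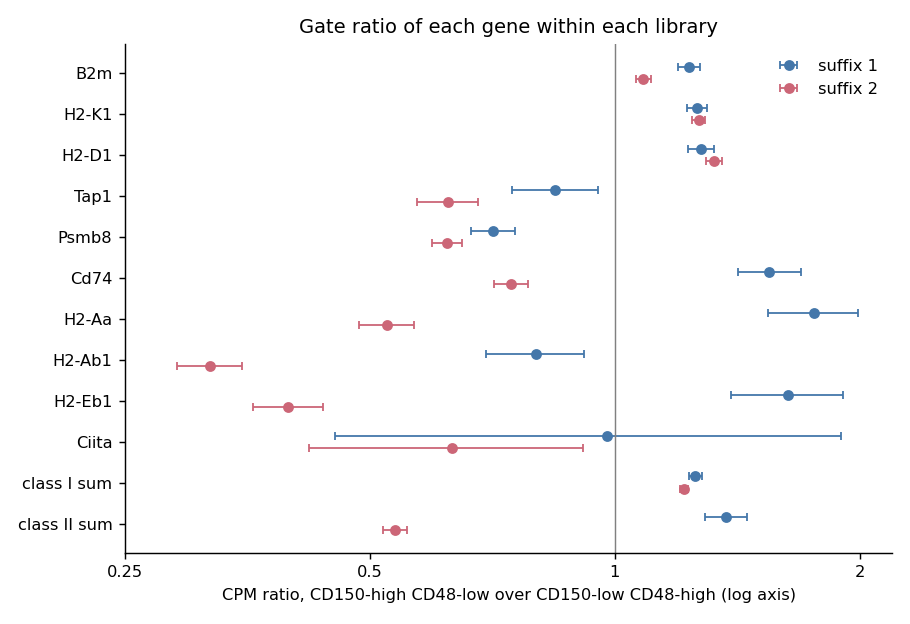
Ratio of the CPM in the SLAM gate over that in CD150-low CD48-high cells (log axis) for each gene and for the class I and class II sums, within suffix 1 (blue) and suffix 2 (red), with bars for the exact 95% interval. The class I chains lie above 1 in both libraries, Tap1, Psmb8 and H2-Ab1 lie below 1 in both, and Cd74, H2-Aa and H2-Eb1 lie on either side. Without the class II-rich and immunoglobulin-rich cells, which are included here, Cd74 of suffix 2 (0.985), H2-Ab1 of suffix 1 (1.003) and Ciita of suffix 2 have intervals that hold 1.

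By a limit of 1.5-fold among genes with at least 5 CPM in either gate, 0 of the 10 genes were higher in the SLAM gate than in CD150-low CD48-high cells over both suffixes, and 3 were lower (H2-Ab1, H2-Eb1 and Psmb8). Of all 10437 genes that reached this level, 15.3% were higher and 14.6% lower, and the median ratio was 0.972 against 0.710 for the 10 genes. In suffix 1, Cd74, H2-Aa and H2-Eb1 were higher and none was lower of 9 genes that reached the level, where 13.1% of all genes were higher and 11.6% lower. In suffix 2 none was higher and 6 of 10 were lower, where 17.0% of all genes were higher and 17.9% lower. Those 6 were Tap1, Psmb8, H2-Aa, H2-Ab1, H2-Eb1 and Ciita. Without the class II-rich and immunoglobulin-rich cells described below, Ciita was at 5.89 against 8.17 CPM, which is within 1.5-fold.

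The class II sum differed less between the suffixes in the SLAM gate than in the other gates, although the SLAM gates of the libraries held unlike cells by other genes. The cycling list was at 289 CPM in suffix 1 and 29.6 CPM in suffix 2, Slamf1, which encodes CD150, at 16.9 and 64.2 CPM, Procr at 115 and 246 CPM, and Flt3, a transcript of later progenitors, at 13.3 and 2.09 CPM. Their part in the values that follow was not tested. Class I was at 6074 CPM in suffix 1 and 6691 CPM in suffix 2, a ratio of 1.10 (1.08 to 1.12), and class II at 580 and 655 CPM, a ratio of 1.13 (1.06 to 1.20). The class II difference came from Cd74 (1.32, 1.20 to 1.45), since without it the 3 chains gave 0.972 (0.889 to 1.06). These small differences rested on how the cells were chosen. With percentiles over both suffixes together the ratios were 0.980 (0.942 to 1.02) for class I and 1.85 (1.58 to 2.18) for class II, and with a stricter filter of over 2500 genes and under 5% mitochondrial UMIs, which left 57 cells, they were 1.34 and 8.96. With the cells as first chosen, none of the 10 genes passed 1.5-fold in either direction, where 8.39% of all genes were higher and 12.3% lower in suffix 2. In CD150-low CD48-high cells, by contrast, all 4 class II genes and Ciita were at least 1.5-fold higher in suffix 2 and none of the 10 was lower, where 2.31% of all genes were higher and 2.20% lower. Markers of other cell states moved in this gate as well. Of the erythroid and megakaryocyte progenitor list, 3 of 5 genes at 5 CPM or more were higher in suffix 2, led by Car1 (20.7 against 0.454 CPM) and Pf4 (28.9 against 8.62 CPM), and of the myeloid progenitor list 2 of 6 were, Ctsg (221 against 60.4 CPM) and Mpo (301 against 139 CPM), with 1 lower. Of the lymphoid progenitor list 5 of 8 were lower, among them Flt3 (145 against 255 CPM) and Dntt (249 against 449 CPM), and Ighm was higher (785 against 342 CPM). Of the stem cell list Procr was higher and Hlf lower (179 against 365 CPM), and no cycling gene of 10 passed either limit. Of the usual class II cells, the conventional dendritic cell list had none of 3 genes higher and 1 lower, Clec10a (4.54 against 7.71 CPM). The B cell list had none of 2 higher. Under 5 CPM, Xcr1 (2.51, 1.55 to 4.24), Batf3 (3.35, 1.49 to 8.85) and Clec9a (2.23, 1.09 to 5.01) were higher in suffix 2. The 9 class II-rich cells described below held 109, 42 and 47 UMIs of these 3 genes. Itgax, Ccr7, Fscn1 and Itgae were lower, with intervals that hold 1. The monocyte and macrophage list had 1 of 3 higher, Ly6c2 (16.7 against 5.33 CPM), and the plasmacytoid dendritic cell list 1 of 5 higher, Ly6d (15.04 against 3.17 CPM), and 1 lower, Ccr9 (0.940 against 6.69 CPM). Their part in the class II difference was not tested. The class II ratio there was 2.89 (2.81 to 2.96), with 3.92 (3.65 to 4.20) for H2-Eb1, 3.41 (3.21 to 3.61) for H2-Aa, 2.75 (2.64 to 2.86) for Cd74, 2.34 (2.23 to 2.45) for H2-Ab1 and 2.06 (1.60 to 2.67) for Ciita. The class II ratio was 3.05 (2.87 to 3.25) in CD150-low CD48-low cells and 2.17 (2.04 to 2.31) in CD150-high CD48-high cells. These gates also held unlike cells in the libraries. In CD150-low CD48-low cells the cycling list was at 290 CPM in suffix 1 and 119 CPM in suffix 2 and the lymphoid progenitor list at 2561 and 92.7 CPM, or 457 CPM in suffix 1 without its immunoglobulin-rich cell. In CD150-high CD48-high cells the cycling list was at 1332 and 338 CPM, the lymphoid progenitor list at 311 and 118 CPM and the myeloid progenitor list at 553 and 992 CPM. Their part in the class II ratios was not tested. Class I differed far less in these gates, with ratios from 1.14 to 1.19.

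Other genes of both pathways are given from the lists. Of all genes, 15.3% were at least 1.5-fold higher in the SLAM gate over both suffixes and 14.6% lower. Of 9 other class I heavy chains in the matrix, 8 reached 5 CPM in either gate, and 2 of them were at least 1.5-fold higher in the SLAM gate over both suffixes, with a median ratio of 1.33 over the 8. These were the nonclassical chains H2-T22 (219 against 143 CPM, ratio 1.54) and H2-T3 (6.12 against 1.03 CPM, ratio 5.93). H2-T3 rests on 45 UMIs of suffix 2 and 1 of suffix 1 in the gate. Of 13 other genes of class I peptide supply and regulation, none was higher and 3 were lower by that limit, with a median of 0.862. Tap2, the partner of Tap1 in the transporter, was at 118 against 218 CPM (0.540), and Psmb9, another immunoproteasome subunit, was at 206 against 323 CPM (0.636). Psme2, of the proteasome activator, was the other one, at 107 against 167 CPM (0.642). Tap2 and Psmb9 are encoded beside Tap1 and Psmb8, and these 4 genes were lower in the SLAM gate of each library. Nlrc5, the coactivator of class I genes, had a ratio of 0.988 (0.823 to 1.18), and Tapbp, which holds empty class I molecules at the transporter, one of 1.002 (0.927 to 1.08).

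Among 13 other class II pathway genes in the matrix, 8 reached the level, 1 was higher and 4 were lower, with a median of 0.805. The shares over all genes were 15.3% higher and 14.6% lower. H2-Ob, a chain of the inhibitor of peptide loading in B cells and dendritic cells, was at 3.19 CPM in the SLAM gate against 39.3 CPM in CD150-low CD48-high cells. In suffix 1 and 2 apart it was at 8.44 and 0.949 CPM against 57.8 and 28.7 CPM. Ctss, the protease that trims the invariant chain, was at 7.45 against 35.3 CPM. By suffix it was at 15.5 and 3.99 CPM against 36.3 and 34.7 CPM. Rfxank, a subunit of the factor that binds the X box of class II promoters, was the higher one, at 16.4 against 10.6 CPM (1.54, 1.25 to 1.88). H2-DMb1, which encodes a chain of the peptide loader H2-DM, was at 68.8 against 68.6 CPM over both suffixes, but at 61.3 against 50.3 CPM (1.22, 1.01 to 1.46) in suffix 1 and at 72.0 against 79.1 CPM (0.910, 0.814 to 1.01) in suffix 2. H2-DMa, the other chain, was at 137 against 231 CPM. Of 15 interferon response genes, 4 were higher and 1 lower, beside the same 15.3% and 14.6% of all genes, with a median of 1.28. The higher ones were led by Iigp1 (139 against 55.4 CPM) and Ifit1 (58.8 against 29.6 CPM). Ifi27l2a was the lower one (2.39 against 45.9 CPM).

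Over the 8 sums of 4 gates by 2 suffixes, the gene most like Cd74 by Pearson's r of log2(CPM + 10) among 8576 genes was H2-DMb1 (0.959), followed by H2-Aa (0.956), H2-Eb1 (0.929), Rpl39 (0.904) and Parp9 (0.904). H2-Ab1 stood further off at 0.730. For H2-K1 genes of high likeness were Eif3e (0.985), Spata7 (0.985), Camk2d (0.983) and Eya2 (0.978), with H2-D1 at 0.978, B2m at 0.927, Psmb8 at -0.692 and Tap1 at -0.708. The 8 sums share 2 libraries and are not independent, so the coefficients are a description.

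To ask whether class II UMIs are spread over stem cells or held by few, each cell was thinned to 9000 UMIs, which left out 36 of the 555 SLAM gate cells and 216 of 3986 in all. At this depth every SLAM gate cell had a UMI of B2m, of H2-K1 and of H2-D1. A class II UMI was found in 362 of 519 SLAM gate cells, 69.7% (65.6 to 73.7), with 75.6% (68.1 to 82.1) in suffix 1 and 67.2% (62.1 to 72.0) in suffix 2. Before thinning the share was 76.6% of the 555 cells. A Cd74 UMI was found in 51.8%, an H2-Aa UMI in 42.4%, an H2-Ab1 UMI in 38.0%, an H2-Eb1 UMI in 33.1% and a Ciita UMI in 4.43% of these cells. In CD150-low CD48-high cells, 67.0% of suffix 1 and 85.0% of suffix 2 had a class II UMI.

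A single UMI says little of a cell, since RNA freed from other cells can supply it. The comparison first planned, with cells of at least 2 UMIs of the erythroid progenitor transcript Klf1, is not reported here. Mpo is the myeloperoxidase transcript of granulocyte precursors, a type not known for class II. Cells of the CD150-low CD48-high gate with 10 or more Mpo UMIs were taken for comparison instead. Their class II sum was at 144 CPM in suffix 1 but at 706 CPM in suffix 2, against 580 and 655 CPM in the SLAM gate, so they were low in class II in suffix 1 alone. They had a class II UMI in 73.7% of 255 thinned cells, where the cells had a median of 30182 UMIs before thinning and SLAM gate cells one of 13334. Within the libraries this was 62.7% in suffix 1 and 76.5% in suffix 2. The share in the SLAM gate was above that of these cells in suffix 1 and below it in suffix 2, and it is therefore not read as the share of stem cells that express class II. After thinning, 3 of the 12 immunoglobulin-rich cells described below had a UMI of H2-Aa, H2-Ab1 or H2-Eb1 (25%), against 59.5% of SLAM gate cells. The immunoglobulin-rich cells had a median of 34073 UMIs before thinning. Between 39.3% and 69.3% of the UMIs of each were immunoglobulin, which leaves fewer other UMIs at the thinned depth. Their share is therefore not read as a background for the SLAM gate.

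The number of UMIs per cell showed a graded and uneven spread. Of the 519 SLAM gate cells, 30.3% had no class II UMI, 25.2% had 1 or 2, 26.4% had 3 to 9, 14.3% had 10 to 29 and 3.85% had 30 or more. The last group, 20 cells, held 29.3% of the class II UMIs of the gate, those with 10 to 29 held 40.7%, and cells with 1 or 2 held 6.20%. The highest cell had 87 class II UMIs of 9000, which was 2.91% of all those in the gate. No single cell or handful of cells thus made up the class II signal of the stem cell gate.

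Ordered by class II UMIs, the highest 10% of SLAM gate cells held 52.2% (50.4 to 54.0) of them, with 49.5% in suffix 1 and 54.0% in suffix 2. This interval takes each UMI as a separate draw and leaves out the spread between cells. For class I the highest 10% held 15.2%. It took 49 cells, 9.44% of the gate, to reach 50% of the class II UMIs, but 206 cells, 39.7%, to reach that of class I. The variance over the mean of UMIs per cell (Fano factor, which is 1 for counting error alone) was 17.5 for the class II sum and 4.13 for the class I sum. Among single genes it was 10.8 for Cd74, 4.54 for H2-Aa, 3.38 for H2-Ab1 and 3.01 for H2-Eb1, against 1.76 for B2m, 2.82 for H2-K1, 2.01 for H2-D1, 1.35 for Tap1 and 1.11 for Psmb8. Class II UMIs were thus held more unevenly than those of class I in both libraries, though not by few cells.

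**Figure D3:**
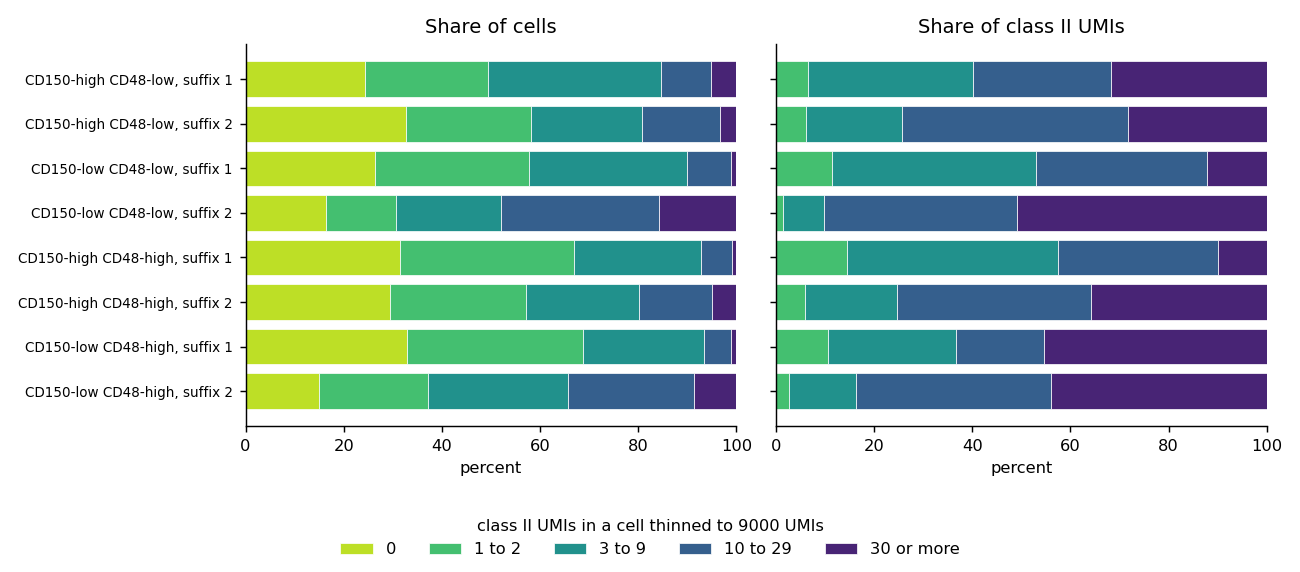
Stacked bars of cells (left) and of class II UMIs (right), in percent, by the number of class II UMIs in a cell thinned to 9000 UMIs, for each gate and suffix. In the SLAM gate 24.4% (suffix 1) and 32.8% (suffix 2) of cells have none, while in CD150-low CD48-high cells of suffix 1 the 1.14% of cells with 30 or more hold 45.4% of the class II UMIs. Of these 10 cells 3 are class II-rich and 1 immunoglobulin-rich, and without such cells 6 of 875 hold 10.4%.

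The other gates differed in this between the libraries. In CD150-low CD48-low cells, 1.18% of suffix 1 (2 cells, of which 1 was immunoglobulin-rich) and 15.8% of suffix 2 had 30 or more class II UMIs, and the highest 10% held 47.0% and 37.8%. In CD150-high CD48-high cells, 0.971% and 5.04% had 30 or more, and the highest 10% held 50.3% and 54.3%. In CD150-low CD48-high cells, 1.14% and 8.74% had 30 or more. The holding of the highest 10% there was 69.5% in suffix 1, where 18 of 879 cells held 50% of the class II UMIs, and 47.3% in suffix 2, where this took 174 of 1556 cells. The value of suffix 1 rested on few cells. Without the class II-rich and immunoglobulin-rich cells the highest 10% held 51.1% and 40.5%, and 50% took 85 of 875 and 212 of 1540 cells. The higher class II level of suffix 2 in the CD150-low gates thus went with more cells at 10 to 29 and at 30 or more UMIs. In CD150-low CD48-high cells, 5.46% of suffix 1 and 25.6% of suffix 2 had 10 to 29.

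**Figure D4:**
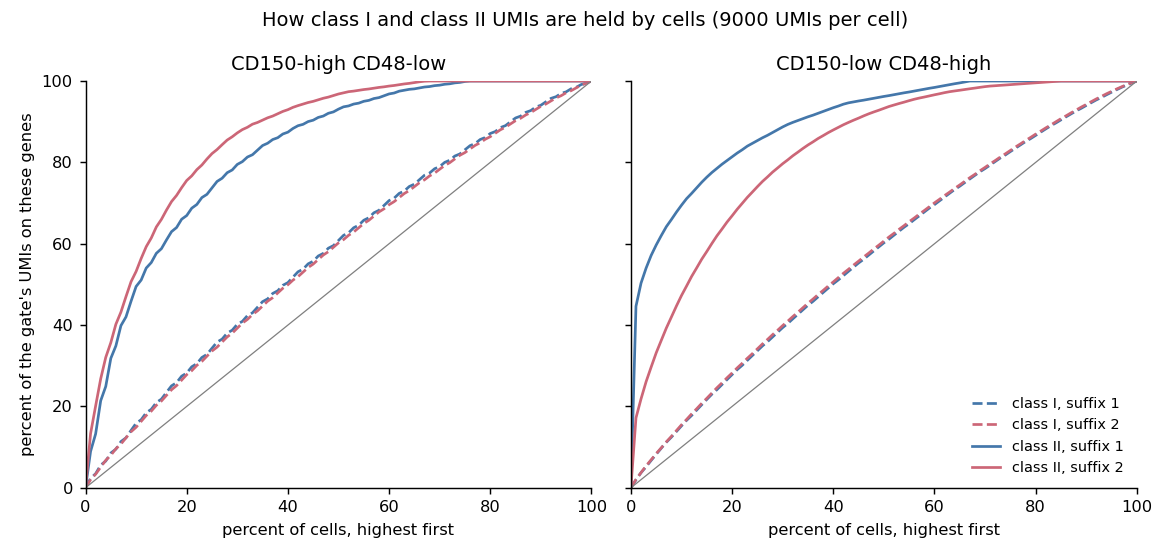
Percent of a gate's class I (dashed) and class II (solid) UMIs held by the highest percent of its cells, at 9000 UMIs per cell, for suffix 1 (blue) and suffix 2 (red). The grey diagonal is an even spread. Class I curves of both libraries lie together, and the class II curve of CD150-low CD48-high cells of suffix 1 reaches 44.6% at the highest 1% of cells, which is 13.9% without the class II-rich and immunoglobulin-rich cells.

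The class II genes were found together in SLAM gate cells. Of 269 thinned SLAM gate cells with a Cd74 UMI, 63.6% (57.5 to 69.3) had one of H2-Aa, 52.8% (46.6 to 58.9) one of H2-Ab1 and 53.2% (47.0 to 59.2) one of H2-Eb1. Of 250 cells without a Cd74 UMI, 19.6% (14.9 to 25.1), 22.0% (17.0 to 27.7) and 11.6% (7.91 to 16.2) had one. All 4 class II genes were found in 16.4% of cells and 3 of them in 15.03%. Ciita had a UMI in 6.69% (4.01 to 10.4) of cells with Cd74 and in 2.00% (0.653 to 4.61) of those without. The shares were higher with Cd74 within each library for all 4 genes, but not equally so. H2-Eb1 was found in 56.8% and 12% of cells with and without Cd74 in suffix 1, and in 51.6% and 11.4% in suffix 2. For H2-Ab1 the shares were 50.5% and 16.0% in suffix 2, but 58.0% (46.5 to 68.9) and 36.0% (25.2 to 47.9) in suffix 1, where the intervals overlap. Those of Ciita overlap in both libraries, with 3.70% and 1.33% in suffix 1 and 7.98% and 2.29% in suffix 2.

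SLAM gate cells with many class II UMIs also had a higher class I level at the same thinned depth. In SLAM gate cells with 0, with 1 to 9 and with 10 or more class II UMIs (157, 268 and 94 cells), the class I sum was 6050, 6432 and 7910 CPM. H2-K1 went from 2538 to 2684 and 3368 CPM and Tap1 from 98.4 to 111 and 164 CPM. The order was the same within both libraries, with class I sums of 5696, 6223 and 6880 CPM in suffix 1 and 6163, 6544 and 8263 CPM in suffix 2. Before thinning, the median depths were 13480, 13759 and 11909 UMIs in suffix 1 and 13637, 13752 and 13524 UMIs in suffix 2, so in suffix 1 the cells with most class II were the shallower ones.

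Markers of stem cells and of dendritic cells are given for the same cells. The HSC-like list was at 1607, 1566 and 1680 CPM in the 3 groups, so cells rich in class II within the gate carried stem cell transcripts at a like level. Xcr1, Siglech and Csf1r were at 0 in all 3 groups, which at 3 counts over the 94 cells with most class II allows up to 3.55 CPM, and Clec9a was at 2.36 CPM in the cells with 10 or more. The conventional dendritic cell list of 12 genes was at 415, 451 and 494 CPM, nearly all of it Cst3 (384, 425 and 461 CPM), which many cells express. Kit and Ly6a, the genes of the sort, summed to 484, 583 and 861 CPM, and the interferon response list to 985, 1158 and 1644 CPM. Within suffix 1 the interferon list did not rank as class I did, at 1038, 952 and 1407 CPM. With SLAM gate cells split instead at the median of their interferon response UMIs in each suffix, Cd74 was at 146 and 431 CPM below and above it in suffix 1 and at 170 and 513 CPM in suffix 2, and the class I sum at 5603 and 6804 and at 6293 and 7221 CPM. The part of interferon in these differences was not tested.

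Among SLAM gate cells with a Vwf UMI, a transcript of platelet-biased stem cells, Cd74 was at 195 CPM in suffix 1 (37 cells) and 327 CPM in suffix 2 (284 cells), against 279 and 410 CPM in those without. In the CD150-low CD48-high gate, leaving out the cells rich in class II or immunoglobulin, Cd74 was at 87.6 and 330 CPM in cells with a Flt3 UMI and at 143 and 403 CPM in those without. Cells of that gate with a Dntt UMI, a lymphoid transcript, had 71.6 and 328 CPM, and those with 10 or more Mpo UMIs 22.4 and 185 CPM. Mpo-rich cells of suffix 1 had the lowest Cd74 of these groups, and in all of them suffix 2 was higher than suffix 1.

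A small set of cells stood apart. In 9 of the 3986 cells more than 2% of the UMIs were class II, between 2.18% and 6.26% a cell, and the next cells below had 1.38%, 1.33% and 1.15%. All 9 lay in the CD150-low CD48-high gate, 3 in suffix 1 and 6 in suffix 2, and none was called a doublet. They held 7975 class II UMIs, with Cd74 at 19839 CPM, H2-Ab1 at 9125 CPM, H2-Aa at 8537 CPM, H2-Eb1 at 5918 CPM and Ciita at 338 CPM, against 273, 178, 153, 120 and 6.67 CPM in the cells that were rich in neither class II nor immunoglobulin. Ciita UMIs were found in each of the 9, between 3 and 12 a cell. Their class I sum was not raised, at 5275 CPM against 5491 CPM, with B2m at 1628 CPM and H2-K1 at 1595 CPM. Psmb8 was at 1753 CPM and Tap1 at 425 CPM.

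These 9 cells carried markers of conventional dendritic cells, of which 7 of 12 on the list were detected, among them Clec9a in 9 of 9 cells (256 CPM), Xcr1 in 8 (593 CPM), Batf3 in 8 (229 CPM) and Itgax in 5 (65.3 CPM). Cst3 was at 22125 CPM, against 414 CPM in the other cells. Clec9a and Xcr1 mark the cross-presenting subset of dendritic cells, and Batf3 is the factor that subset needs, while Sirpa, a marker of the other subset, was at 0. The B cell list held 3 UMIs in all 9 cells, with Cd79a and Pax5 at 0. Of the monocyte and macrophage list, 5 of 12 genes were detected, at 697 CPM in sum against 264 CPM in the other cells, nearly all of it Lyz2 (490 against 238 CPM) and Cd68 (147 against 11.1 CPM), while Csf1r was at 0. The stem cell list held 6 UMIs in all 9 cells, and Kit was found in 5 and Ly6a in 7 of them. The 3 cells next below in class II share had no UMI of Xcr1, Clec9a or Batf3 and between 2 and 6 of Cst3.

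Without these 9 cells and the immunoglobulin-rich cells, class II in CD150-low CD48-high cells was at 281 CPM in suffix 1 and 1014 CPM in suffix 2, against 423 and 1221 CPM with them. The ratio of the SLAM gate to that gate was then 2.06 (1.94 to 2.19) in suffix 1 and 0.646 (0.623 to 0.669) in suffix 2, so the opposite directions stood without them. Cd74 alone had 2.83 (2.57 to 3.11) in suffix 1 and 0.985 (0.937 to 1.04) in suffix 2, where its direction was lost, and over both suffixes its ratio went from 0.899 (0.861 to 0.938) to 1.25 (1.20 to 1.31), where the stricter cell filter had given 0.446. H2-Ab1 went to 1.003 (0.870 to 1.15) in suffix 1, and Ciita to 0.720 (0.479 to 1.05) in suffix 2. The SLAM gate held none of these cells, and its values are the same with and without them.

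A further 12 cells had at least 10% immunoglobulin UMIs, 2 in suffix 1 and 10 in suffix 2, of which 11 lay in the CD150-low CD48-high gate. They had Cd74 at 3656 CPM, between 40 and 225 UMIs a cell, and B2m at 4003 CPM, but H2-Aa at 36.0, H2-Ab1 at 67.2 and H2-Eb1 at 33.6 CPM and no Ciita UMI, which at 3 counts over these cells allows up to 7.20 CPM. All 8 genes of the plasma cell list were detected in them, with Jchain in 10 of 12 cells. The cells thus held the invariant chain with little of the chains it escorts.

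The make-up of class II UMIs differed between these cells and the gates. Cd74 was 45.7% of class II UMIs in the 9 class II-rich cells and 96.4% in the immunoglobulin-rich cells. Leaving both out, it was 45.1% (42.4 to 47.8) and 52.8% in the SLAM gate of suffix 1 and 2, 41.3% and 46.2% in CD150-low CD48-low cells, 33.7% and 45.0% in CD150-high CD48-high cells, and 32.9% and 34.6% in CD150-low CD48-high cells. H2-Ab1 went the other way, with 17.5% and 14.3% in the SLAM gate and 35.9% and 25.6% in CD150-low CD48-high cells. Where a single class II gene had a UMI in a thinned cell, it was Cd74 in 46.5% of 114 such SLAM gate cells and H2-Ab1 in 64.0% of 611 such CD150-low CD48-high cells. In the Mpo-rich cells of suffix 1, H2-Ab1 was 55.4% of 224 class II UMIs. The class II genes thus did not keep a fixed ratio to one another over the gates of either library.

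**Figure D5:**
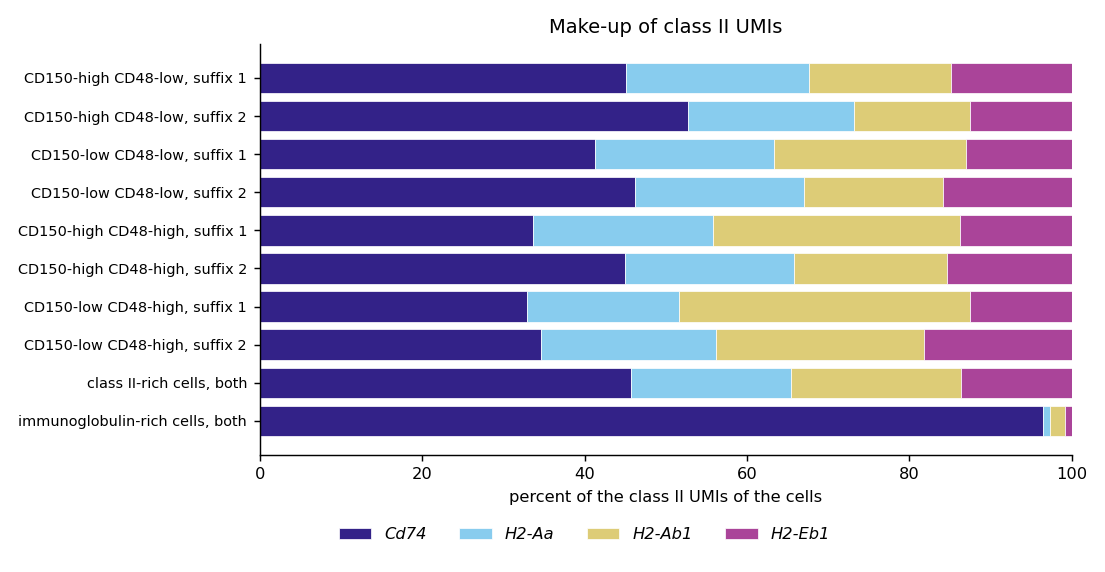
Percent of class II UMIs from Cd74, H2-Aa, H2-Ab1 and H2-Eb1 in each gate and suffix, without the class II-rich and immunoglobulin-rich cells, and in those 2 sets of cells over both suffixes. The SLAM gate has the larger Cd74 part (45.1% and 52.8%), CD150-low CD48-high cells the larger H2-Ab1 part (35.9% and 25.6%), and the immunoglobulin-rich cells are almost all Cd74 (96.4%).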

How the data were processed

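LSK cells sorted from pooled mice were measured as 1 CITE-Seq library per age, without replicates. The authors made the transcript counts (UMIs per gene and cell) with Cell Ranger 3.1.0 on GRCm38/mm10, as the submitters' processing notes name them, and aggregated both libraries in a step that normalized depth in a mode not given in the sources used here. The deposited tag values are on a log10 scale and came from CITE-seq-Count, and raised to the power of 10 they were whole within 1e-06. Counts were summed per gate and suffix and given as CPM (per 1000000 UMIs) with exact Poisson intervals, ratios with exact conditional binomial intervals and shares with Clopper-Pearson intervals, all at 95% and for counting error only. A count of 0 was taken to allow 3 counts. Shares of cells with a UMI came from cells thinned to 9000 UMIs at random, which left out 216 cells. Genes were compared over the whole matrix at 1.5-fold with at least 5 CPM in either group, a limit of size and not a test. Cells of at least 10% immunoglobulin UMIs or over 2% class II UMIs were kept and their effect given. Scrublet, run within scanpy 1.11.5 on each suffix, called 37 doublets among the kept cells, which stayed in. The members and lists were chosen with earlier results of these data known. Genes named were the 10 members, the most changed past 1.5-fold of each other list, and the 5 most like Cd74 and H2-K1, of which some are not reported here. Genes named beyond that rule (Nlrc5, Tapbp, H2-DMa, H2-DMb1, Psme2, and markers) were chosen after their values were seen. Alternatives were other percentiles, filters, thinning depths and totals, and each suffix alone. Python 3.11.15, numpy 2.4.6, scipy 1.17.1, pandas 2.3.3 and matplotlib 3.10.9 were used. The interval, ratio and thinning steps were tested on simulated data.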

Additional observations from a re-analysis of the deposited data

Results flagged for a closer look

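In these results the 2 libraries moved in opposite directions between the SLAM gate and CD150-low CD48-high cells, and since each library is 1 sample the difference between them was not tested. The class II sum had a ratio of 1.37 in suffix 1 and 0.537 in suffix 2, and the sum of H2-Aa, H2-Ab1 and H2-Eb1 without Cd74 had ratios of 1.25 and 0.409. Among single genes, Cd74 had 1.55 and 0.746, H2-Aa 1.75 and 0.524, and H2-Eb1 1.63 and 0.397. Without the 9 class II-rich and 12 immunoglobulin-rich cells the ratios were 2.06 and 0.646 for the class II sum, 2.49 and 0.608 for H2-Aa and 2.45 and 0.445 for H2-Eb1, while Cd74 had 2.83 and 0.985 (0.937 to 1.04), so that its opposite direction in suffix 2 was lost. For the cells as first chosen, the SLAM gate levels differed little between the libraries (580 and 655 CPM for the class II sum). Most of the turn then lay in CD150-low CD48-high cells (423 and 1221 CPM). With percentiles over both suffixes together or with the stricter filter, class II in the SLAM gate differed more. The ratio of suffix 2 over suffix 1 was 8.96 (6.86 to 11.9) with the stricter filter, which left 57 cells.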

How the results depend on the processing

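The ratio of the SLAM gate over CD150-low CD48-high cells stayed above 1 for class I under every alternative run, from 1.22 to 1.34, and below 1 for class II except in suffix 1 alone. In suffix 1 alone the ratios were 1.26 for class I, 1.37 for class II, 1.55 for Cd74, 1.75 for H2-Aa and 1.63 for H2-Eb1, the last 4 reversed against both suffixes, with 75.6% of SLAM gate cells having a class II UMI and 49.5% of class II UMIs in the highest 10% of cells. Suffix 2 alone gave 1.22, 0.537 and 54.0%. Without ribosomal protein and mitochondrial genes in the total, class I had 1.34 and class II 0.736, and the class I ratio of suffix 2 over suffix 1 in the SLAM gate was 1.15. Without a cell filter these were 1.26, 0.733 and 1.15, with 1.21 for the class II suffix ratio. The stricter filter gave 1.31 and 0.472, with 0.446 for Cd74 and 0.928 for Tap1, suffix ratios of 1.34 and 8.96, and 47.4% of class II UMIs in the highest 10% of 57 cells. Percentiles over both suffixes, added after seeing the data, gave 1.27 and 0.863, suffix ratios of 0.980 and 1.85, and 1.14 for Cd74, a reversal. Limits at the 80th and 20th percentiles gave 1.25 for class I. With B2m left out, class I had 1.29 and its suffix ratio was 1.14. With Cd74 left out, class II had 0.544, its suffix ratio was 0.972, and 59.5% of cells had a UMI. Without thinning 76.6% had one, and at 5000 UMIs 61.8% did, with 50.3% in the highest 10%. Without the cells over 2% class II UMIs, also added after seeing the data, class II had 0.823. The causes were not tested. Of single genes, 49 values were within the counting interval of the first and 37 moved without a change of direction. No paired analysis was possible because there is 1 library per suffix and no test. Depth limits Ciita most, with 41 UMIs in the SLAM gate.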

Other observations

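The 9 class II-rich cells had other genes in common besides those given above. Ranked by the ratio of their CPM to that of the other cells with 20 CPM added to both, Naaa (74.2), a lysosomal amidase, stood first, ahead of Cd74 (67.8), followed by Plbd1 (55.5), Id2 (52.4), a regulator needed for dendritic cells, Cst3 (51.0) and Irf8 (48.3), a factor of the same lineage. Cxcl9, an interferon-induced chemokine, had 119 UMIs in 3 of the 9 cells.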
